A study of Homo sapiens with 60 samples.

Results

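The 39 genes described here act in homologous recombination and in the Fanconi anemia pathway, with 3 checkpoint kinases that start or carry the DNA damage signal. They were chosen as a named list, by matching gene symbols to the Ensembl identifiers of a table of 60675 genes. All 39 were found, and all 39 passed the filter on low counts that left 16284 genes for testing. The cells were HepG2, a line that grows from a human liver cancer, and their poly(A) RNA was sequenced 24 h after addition of a herbal extract or of DMSO as vehicle. The extracts were given at 20 µg/mL (Low), 100 µg/mL (Medium) and 500 µg/mL (High). Glycyrrhizae Radix (licorice root, called Glycyrrhiza below), Poria cocos (Poria), Atractylodis Rhizoma (Atractylodis) and Panax ginseng (Ginseng) were extracted with 70% ethanol and had 3 libraries per dose. The water extracts of the formulas Sibjeondaebo-tang (SDT) and Palmul-tang (PMT) had 3 and 2 libraries per dose. Angelicae Gigantis Radix (Angelica) and Paeoniae Radix (Paeonia), also extracted with 70% ethanol, had 1 library per dose, and vehicle had 3. The sample labels give 0.1% DMSO for vehicle and the text of the series gives 2%. That text also allows lower doses for toxic extracts, while the sample labels give the doses above. All cells came from 1 line, and replicates are not described as separate cultures, so p-values measure the spread between these libraries, which may be technical. In such bulk samples, fewer cells of a kind and less RNA per cell cannot be told apart.

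Homologous recombination repairs a double-strand break by copying an intact sister chromatid, and so works mainly in cells that are replicating or have replicated their DNA. Broken ends are cut back to single strands, BRCA proteins load the strand exchange recombinase on them, helper proteins promote strand invasion, and the joined DNA molecules are separated by dissolution or by cutting. The Fanconi pathway handles crosslinks between DNA strands: a core complex with its E2 enzyme attaches ubiquitin to FANCD2 and FANCI, which brings in nucleases and the recombination proteins.

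The 60 libraries held between 19057227 and 33233238 counts. Transcripts of the mitochondrial genome took 13.4% to 24.8% of the counts over all libraries. That share was 17.8% to 18.4% in Glycyrrhiza High and 15.1% to 17.0% in Glycyrrhiza Low, and 19.7% to 22.3% in Poria High and 15.8% to 17.5% in Poria Low. The sample descriptions carry a set code that differs between vehicle and every extract, and an extract has 1 code at all doses. Doses of 1 extract were therefore compared with each other first, and comparisons with vehicle follow. Hepatocyte markers summed to 43800 to 68800 CPM (counts scaled by library size with TMM factors) in all libraries, with 10 of 10 tested. Of 8 leukocyte markers, PTPRC and MS4A1 were at 0 in every library, while LYZ had 816 to 2090 CPM and CD68 50.5 to 161 CPM, and the list summed to 971 to 2180 CPM. The 8 endothelial markers summed to 4.27 to 8.79 CPM with CLEC4G at 0, the 8 fibroblast and stellate markers to 45.6 to 76.1 CPM, and the 6 biliary markers to 597 to 1300 CPM.

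Most of these genes were lower in Glycyrrhiza High. Of the 39, 34 passed the test against Glycyrrhiza Low, 30 lower and 4 higher (edgeR quasi-likelihood test, Benjamini-Hochberg adjusted p below 0.05). Over all genes tested, 56.3% were called in this comparison, 27.8% lower and 28.4% higher. The median log2 fold change of the 39 was -0.73, against 0.01 over all genes tested, and single genes ran from -1.48 (FANCB) to 0.78 (MUS81). Summed over the 39 genes, the level was 843.4 to 883.6 CPM in Glycyrrhiza High and 1212 to 1234 CPM in Glycyrrhiza Low, with 1210 to 1233 CPM in vehicle. The genes not called were RAD50, PALB2, SLX4, FANCE and ATM. Leaving out any 1 of the 6 libraries also gave 34. Proliferation markers moved with them: 15 of 15 were lower, and their summed level was 1120 to 1170 CPM in Glycyrrhiza High, against 3140 to 3180 CPM in Glycyrrhiza Low and 3050 to 3190 CPM in vehicle. None of these markers was at 0. Of the 10 hepatocyte markers, 8 were lower and 1 higher, with a sum of 43800 to 46500 CPM in Glycyrrhiza High and 59200 to 60200 CPM in Glycyrrhiza Low. Leukocyte markers summed to 977 to 1050 CPM in Glycyrrhiza High and 1260 to 1370 CPM in Glycyrrhiza Low, biliary markers to 728 to 748 CPM in High and 806 to 851 CPM in Low, and fibroblast and stellate markers to 55.1 to 58 CPM in High and 65.4 to 69.6 CPM in Low. The part of these marker lists, or of the mitochondrial share, in the result was not tested.

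**Figure D1:**
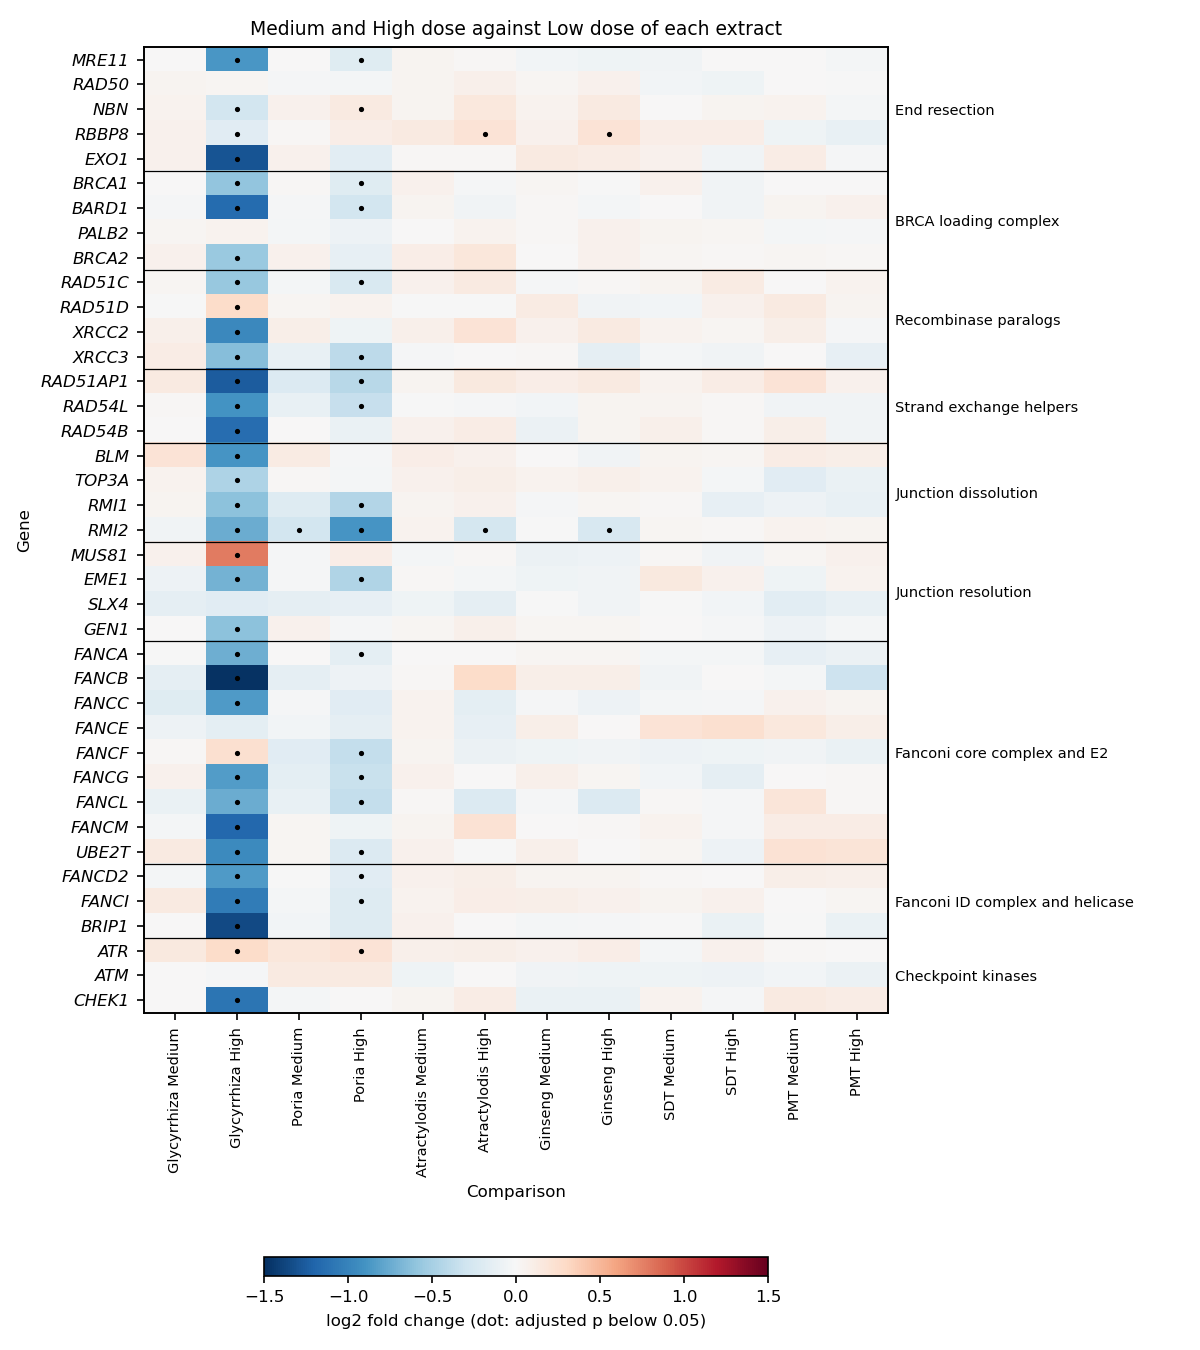
Log2 fold change of each of the 39 genes (rows, grouped by role) at Medium and High against Low of the same extract (columns), from blue (lower) to red (higher); a dot marks an adjusted p below 0.05. The Glycyrrhiza High column is blue in 30 rows with a dot, the Poria High column in 17, and the formulas SDT and PMT have no dot.

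End resection opens the pathway. EXO1 (chr1:241847967-241895148, plus strand, GRCh38), an exonuclease that extends the resected tract, had 9.83, 8.94 and 8.64 CPM in Glycyrrhiza High, against 22.6, 21.8 and 22.7 CPM in Glycyrrhiza Low. The highest of the High libraries thus lay well under the lowest of the Low libraries, and EXO1 fell by 1.29 on the log2 scale (SE 0.08, edgeR adjusted p 2.06e-19). MRE11, the nuclease of the complex that first holds the ends, had 22.7, 20.3 and 22.6 CPM in Glycyrrhiza High and 40.7, 40.4 and 37.9 CPM in Glycyrrhiza Low. Those groups were also fully apart, and MRE11 fell by 0.87 (SE 0.06, edgeR adjusted p 1.6e-17). RAD50, the ATPase partner of MRE11, had 83.5, 87.6 and 76.1 CPM in High and 82.0, 80.8 and 78.5 CPM in Low, and the groups overlapped. Its log2 difference was 0.03, with a 95% interval of -0.07 to 0.13. NBN, the third subunit, fell by 0.28, and RBBP8 (CtIP), which starts the cutting, by 0.17. The complex of MRE11, RAD50 and NBN was thus changed unequally at the RNA level. Much of RAD50 is shared with another gene annotated in GENCODE 29. Of its 9771 exon bases, 7784 lie on the same strand in exons of AC116366.3. No counts of AC116366.3 were found among the deposited genes. Whether the annotation used for counting held it is not given, so RAD50 is uncertain to that extent.

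The loading complex was lower in 3 of 4 members. BARD1, which pairs with BRCA1 in a ubiquitin ligase, had 9.59, 7.97 and 7.95 CPM in Glycyrrhiza High and 20.7, 18.9 and 17.0 CPM in Glycyrrhiza Low. No library of one group reached the other, and BARD1 fell by 1.15 (SE 0.07, edgeR adjusted p 7.62e-19). BRCA1 itself fell by 0.59 (SE 0.07) and BRCA2, which carries the recombinase, by 0.56 (SE 0.07). PALB2, the bridge between both BRCA proteins, had 56.2, 58.8 and 55.3 CPM in High and 54.2, 55.3 and 55.2 CPM in Low, with overlapping groups. The 95% interval of its log2 difference was -0.06 to 0.15.

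The recombinase paralogs form small complexes that steady the recombinase filament. XRCC2 had 13.3, 13.2 and 11.4 CPM in Glycyrrhiza High, against 24.4, 24.7 and 25.5 CPM in Glycyrrhiza Low, and fell by 0.97 (SE 0.08, edgeR adjusted p 9.27e-15). XRCC3, which partners RAD51C, had 11.7, 12.2 and 11.8 CPM in High and 18.6, 18.3 and 18.4 CPM in Low, and fell by 0.64 (SE 0.07). RAD51C fell by 0.57. In all 3, High and Low libraries did not overlap. RAD51D, a direct partner of XRCC2, went the other way, with 13.3, 11.7 and 12.7 CPM in High and 10.9, 10.0 and 10.2 CPM in Low. Its 3 High libraries lay above its 3 Low libraries, and it rose by 0.27 (SE 0.08, edgeR adjusted p 0.0024). RAD51D shares 1003 of 11304 exon bases with the readthrough gene RAD51L3-RFFL, which was at 0.0873 CPM or less in Glycyrrhiza High and at 0 in Glycyrrhiza Low. XRCC3 shares 5756 of its 7507 exon bases with KLC1 on the opposite strand, and KLC1 rose by 0.33 in the same comparison. Whether counting used the strand is not given in the sources used here. Other members also overlap genes on the opposite strand, and only part of these overlaps are given below.

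All 3 strand exchange helpers were lower. RAD51AP1, which stimulates strand invasion, had 8.89, 9.09 and 10.3 CPM in Glycyrrhiza High and 22.6, 23.2 and 21.1 CPM in Glycyrrhiza Low. The groups were far apart, and it fell by 1.25 (SE 0.08, edgeR adjusted p 2.57e-17). The DNA translocases RAD54B and RAD54L fell by 1.14 (SE 0.10) and 0.90 (SE 0.05). RAD54L shares 806 of 3212 exon bases with LRRC41 on the opposite strand, which rose by 0.17. RAD54B shares 3139 of its 5313 exon bases with FSBP on the same strand. FSBP was at 0.349 to 0.906 CPM in Glycyrrhiza High and 1.11 to 2.04 CPM in Glycyrrhiza Low, while RAD54B was at 4.97, 5.28 and 4.85 CPM in High and 10.3, 12.4 and 10.7 CPM in Low.

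Joined molecules are separated by 2 routes, and their genes did not move together. All 4 genes of the dissolution complex were lower. BLM, its helicase, had 10.1, 9.00 and 8.91 CPM in Glycyrrhiza High and 17.1, 17.4 and 17.3 CPM in Glycyrrhiza Low, and fell by 0.89 (SE 0.08, edgeR adjusted p 7.05e-14). RMI2, a stabilising subunit, fell by 0.75, RMI1 by 0.61 and the topoisomerase TOP3A by 0.46. Among the nucleases of the resolution route, MUS81 (chr11:65857126-65867653, plus strand, GRCh38) had 23.2, 23.0 and 23.3 CPM in Glycyrrhiza High and 13.8, 13 and 13.6 CPM in Glycyrrhiza Low. Its 3 High libraries were nearly equal and well above all Low libraries, and MUS81 rose by 0.78 (SE 0.07, edgeR adjusted p 3.98e-14), 1.72-fold. EME1, a partner of MUS81, had 13.9, 12.5 and 12.6 CPM in High and 21.3, 21.7 and 20.5 CPM in Low, and fell by 0.71 (SE 0.07, edgeR adjusted p 2.22e-12). GEN1, a second resolving enzyme, fell by 0.61, and the scaffold SLX4 was not called at a log2 difference of -0.17 (95% interval -0.34 to 0.01). On the opposite strand, MUS81 shares 770 of 5476 exon bases with CFL1 and EFEMP2. CFL1, at 347 CPM in vehicle, fell by 0.25 in the same comparison, and EFEMP2 was at -0.19 (edgeR adjusted p 0.169). EME1 shares 541 of 3294 exon bases with LRRC59, also on the opposite strand. LRRC59 was at 315 CPM in vehicle and fell by 0.1.

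In the Fanconi core complex and its E2 enzyme, 7 of 9 genes were lower and 1 was higher. FANCB had 1.48, 1.89 and 1.48 CPM in Glycyrrhiza High and 4.13, 4.96 and 4.56 CPM in Glycyrrhiza Low. High was below Low throughout. FANCB fell by 1.48 (SE 0.15, edgeR adjusted p 2.55e-11), the largest fall of the list. FANCM, a translocase that anchors the complex on DNA, fell by 1.18 (SE 0.08). UBE2T, the E2 enzyme, fell by 0.95, FANCC by 0.85, FANCG by 0.84, FANCL, the ubiquitin ligase subunit, by 0.75 and FANCA by 0.73. FANCF, an adaptor in the complex, had 12, 11.3 and 10.7 CPM in High and 8.99, 10.4 and 9.47 CPM in Low. Its groups did not overlap, and it rose by 0.24 (SE 0.07, edgeR adjusted p 0.00313). FANCE was not called at -0.15 (95% interval -0.35 to 0.06). FANCA shares 2302 of 9736 exon bases with ZNF276 on the opposite strand, which rose by 0.33. On the opposite strand too, FANCF shares 333 of 2952 exon bases with GAS2, which fell by 0.25. FANCL shares 476 of 2412 with VRK2 and AC007250.1.

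The targets and partners of the core complex fell together. BRIP1, a helicase that binds BRCA1, had 14.5, 14.6 and 12.5 CPM in Glycyrrhiza High and 34.4, 35.1 and 36.5 CPM in Glycyrrhiza Low. High lay far below Low in every library, and BRIP1 fell by 1.35 (SE 0.08, edgeR adjusted p 2.34e-18). FANCI fell by 1.05 (SE 0.05) and its partner FANCD2 by 0.85 (SE 0.06).

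The checkpoint kinases split. CHEK1, the effector kinase under ATR, had 17.8, 17.2 and 18.8 CPM in Glycyrrhiza High and 38.0, 40.3 and 36.9 CPM in Glycyrrhiza Low. It fell by 1.10 (SE 0.05, edgeR adjusted p 1.09e-22), with no overlap. ATR, which responds to exposed single-stranded DNA, had 30.5, 31.8 and 28.1 CPM in High and 25.6, 25.7 and 23.8 CPM in Low. All 3 High libraries were above all 3 Low libraries, and ATR rose by 0.27 (SE 0.06, edgeR adjusted p 0.000288). ATR shares 2048 of 12496 exon bases with AC109992.1 on the opposite strand, whose level was not examined here. ATM, which responds to double-strand breaks, had 87.3, 91.2 and 84.5 CPM in High and 88.8, 87.9 and 89.2 CPM in Low, and was not called (95% interval -0.16 to 0.12).

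In 36 of the 39 genes the High and Low libraries of Glycyrrhiza did not overlap, 32 with High below and 4 with High above. Over all genes tested, 62.8% did not overlap in this comparison, 31% with High below and 31.8% with High above. The 3 genes whose libraries overlapped were RAD50, PALB2 and ATM.

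Many genes that peak with DNA replication carry sites for E2F factors in their promoters, and those that peak later carry a CHR element. The promoter windows of 24 of the 39 genes, from 250 bases before to 50 bases after the start, were matched by symbol in RefSeq (GRCh38.p14). Only genes with a single window were kept. The others, among them BRCA1, EXO1 and CHEK1, were not searched. The letters TTTCCCGC, TTTGGCGC, TTTCGCGC and TTTGCCGC were searched on both strands as E2F-type matches, and TTTGAA and TTCGAA as CHR-type matches. An E2F-type match was present in 3 of 24 windows (12.5%), against 3.31% of all 35116 windows, and a CHR-type match in 2 of 24 (8.33%, UBE2T and BRIP1), against 16.4%. The 35116 windows were not limited to tested genes or to 1 window per gene, so these shares are of unlike sets. All 3 E2F-type matches were among the 17 windows of genes lower in Glycyrrhiza High, 17.6% of that group. Of the 7 windows of the other genes, 0 had one. The rest of the 17 had none, among them the windows of FANCB, RAD51AP1, FANCM and BARD1, which fell strongly. With 3 matches it cannot be told whether a match goes with a fall, and this was not tested. These 17 are only part of the 30 genes lower there. The windows shown were chosen by outcome. Those with an E2F-type match are shown because their genes fell in Glycyrrhiza High, and that of MUS81, with neither match, because MUS81 rose. They are XRCC2 (chr7:152676092-152676391, minus strand), FANCA (chr16:89816598-89816897, minus strand), FANCD2 (chr3:10026187-10026486, plus strand) and MUS81 (chr11:65860183-65860482, plus strand), each written 5′ to 3′ on the strand of its gene. Capitals mark the match, which reads on the opposite strand in the first 3 windows.
XRCC2: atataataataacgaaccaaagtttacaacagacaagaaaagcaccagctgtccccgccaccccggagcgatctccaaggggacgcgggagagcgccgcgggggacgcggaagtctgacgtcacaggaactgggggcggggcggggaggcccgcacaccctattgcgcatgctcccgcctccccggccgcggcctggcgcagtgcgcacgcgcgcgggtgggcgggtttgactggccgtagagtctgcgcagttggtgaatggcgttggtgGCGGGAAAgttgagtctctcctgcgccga
FANCA: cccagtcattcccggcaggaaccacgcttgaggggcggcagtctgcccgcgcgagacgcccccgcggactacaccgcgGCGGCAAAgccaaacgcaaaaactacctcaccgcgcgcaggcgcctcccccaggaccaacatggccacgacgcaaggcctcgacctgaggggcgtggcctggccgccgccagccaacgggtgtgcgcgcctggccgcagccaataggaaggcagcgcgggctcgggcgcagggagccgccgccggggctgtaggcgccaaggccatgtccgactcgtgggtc
FANCD2: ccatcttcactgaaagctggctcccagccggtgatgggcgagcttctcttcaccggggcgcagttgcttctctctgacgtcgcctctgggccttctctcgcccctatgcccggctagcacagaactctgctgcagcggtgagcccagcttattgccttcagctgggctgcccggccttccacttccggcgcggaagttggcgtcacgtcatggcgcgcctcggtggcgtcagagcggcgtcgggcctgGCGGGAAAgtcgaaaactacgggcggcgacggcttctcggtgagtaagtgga
MUS81: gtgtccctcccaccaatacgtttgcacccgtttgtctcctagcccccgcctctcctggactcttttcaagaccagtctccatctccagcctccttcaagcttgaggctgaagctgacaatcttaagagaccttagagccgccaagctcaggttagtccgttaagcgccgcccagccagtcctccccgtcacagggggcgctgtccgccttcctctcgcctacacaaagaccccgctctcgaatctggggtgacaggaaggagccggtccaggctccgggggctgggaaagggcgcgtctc
XRCC2 and FANCD2 share the same 8 bases of the match, GCGGGAAA, and both lie close to the 3′ end of the window, while the match of FANCA lies in its 5′ part. A match is a description of the letters and not a binding site. The MUS81 window lies inside the gene as annotated in GENCODE 29 (chr11:65857126-65867653), so the sequence at that annotated start was not searched.

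The dose step from Low to Medium left no call among the 39 in Glycyrrhiza, with 4 at an unadjusted p below 0.05, while 3.56% of all genes tested were called, 1.77% higher and 1.79% lower. With only the groups compared in the fit, 1 gene was called. For the genes with the largest falls at High, Medium libraries sat at the Low level: EXO1 had 22.6, 21.8 and 22.7 CPM at Low, 23.6, 22.9 and 23.5 CPM at Medium and 9.83, 8.94 and 8.64 CPM at High. MUS81 had 13.8, 13 and 13.6 CPM at Low, 13.9, 14.7 and 13.3 CPM at Medium and 23.2, 23.0 and 23.3 CPM at High. Neither gene was called at Medium, and both changed at High. Summed over the 39 genes, Glycyrrhiza Medium held 1236 to 1277 CPM.

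**Figure D2:**
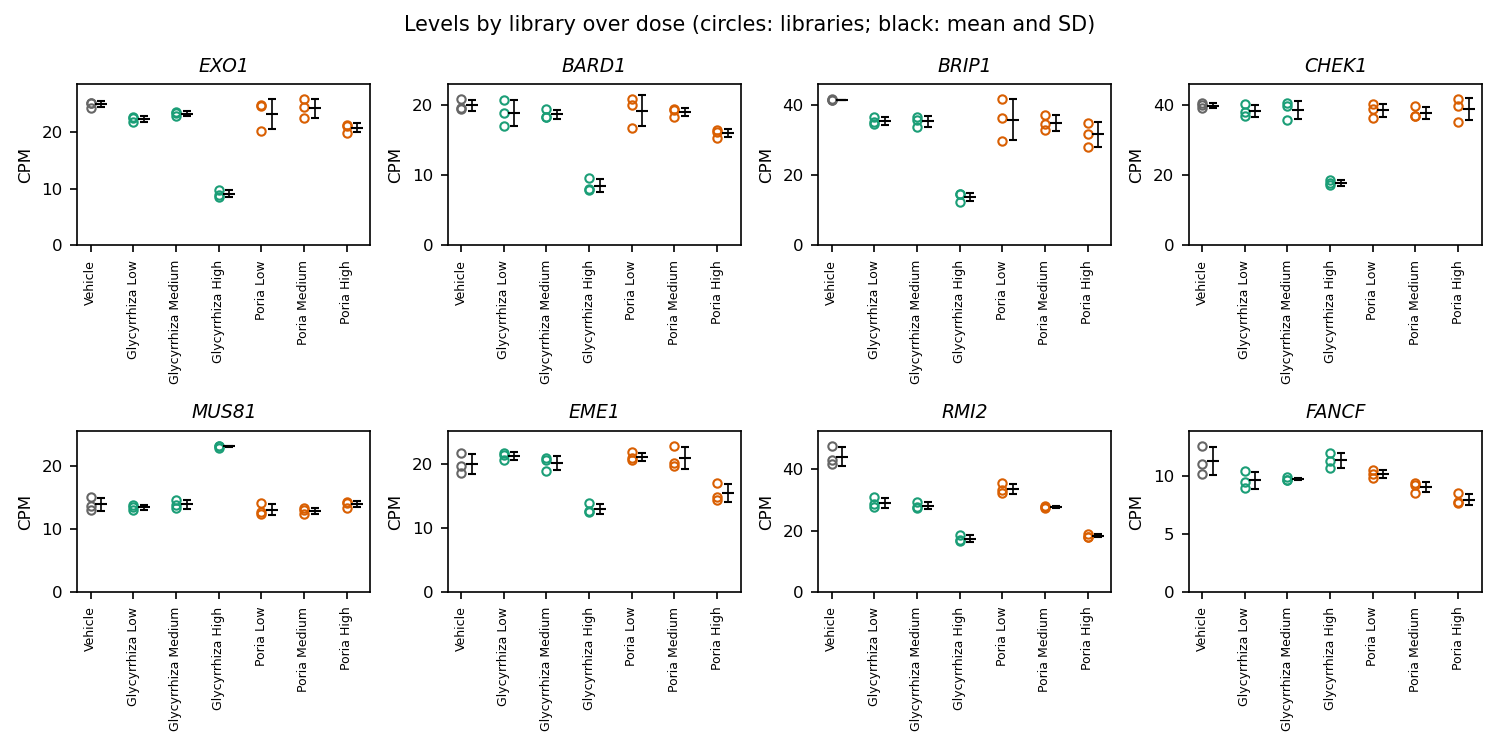
Level in CPM (vertical axis, from 0) of 8 genes in vehicle and at Low, Medium and High of Glycyrrhiza (green) and Poria (orange); circles are libraries and black marks are the mean and SD of 3. EXO1, BARD1, BRIP1 and CHEK1 drop at Glycyrrhiza High alone or most there, MUS81 is up at Glycyrrhiza High, EME1 and RMI2 are down at High of both extracts, and FANCF is down at Poria High.

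In some pairs of partner proteins, 1 gene passed the test and the other did not, or both passed in opposite directions. The 5 pairs given here were chosen for that after their values were seen, so the ratios are a description. Other partners fell together, such as FANCI with FANCD2 and RMI1 with RMI2. The log2 ratio of MUS81 to EME1 within a library was 0.74 to 0.89 in Glycyrrhiza High, against -0.74 to -0.59 in Glycyrrhiza Low. The ratio of RAD50 to MRE11 was 1.75 to 2.11 in High and 1.00 to 1.05 in Low. PALB2 to BARD1 gave 2.55 to 2.88 in High and 1.39 to 1.70 in Low. FANCF to FANCG, which sit side by side in the core complex, gave 0.31 to 0.60 in High and -0.70 to -0.47 in Low. ATR to CHEK1, a kinase and its substrate, gave 0.58 to 0.89 in High and -0.65 to -0.57 in Low. These ratios are of CPM not divided by length, so their shift between groups can be read and their absolute size cannot.

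Poria High moved fewer of these genes and by less. Of the 39, 19 were called against Poria Low, 17 lower and 2 higher, while 38.4% of all genes tested were called, 18.4% lower and 20% higher. The median log2 fold change was -0.15, against 0 over all genes. With only these 2 groups in the fit, 10 were called, all lower, and leaving out single libraries gave 16 to 18. The sum over the 39 genes was 1108 to 1133 CPM in Poria High and 1146 to 1253 CPM in Poria Low. Poria Low replicate 3 was the lowest Low library for BRIP1, EXO1, BARD1 and ATR. Of the proliferation markers, 13 of 15 were lower and 1 higher, and their sum was 2530 to 2670 CPM in Poria High and 2990 to 3130 CPM in Poria Low. Hepatocyte markers summed to 66400 to 68800 CPM in Poria High and 59000 to 62500 CPM in Poria Low, with 5 of 10 lower and 3 higher. Leukocyte markers summed to 1880 to 1980 CPM in Poria High and 1210 to 1330 CPM in Poria Low, and biliary markers to 1080 to 1300 CPM in High and 636 to 712 CPM in Low, with 3 of 4 tested higher. Fibroblast and stellate markers summed to 45.6 to 47 CPM in High and 68.3 to 72.4 CPM in Low, and endothelial markers to 7.55 to 8.79 CPM in High and 4.27 to 5.49 CPM in Low. The part of these markers, and of the mitochondrial share, in the Poria result was not tested.

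RMI2 (chr16:11249619-11381662, plus strand, GRCh38) led the Poria response. It had 18.0, 18.0 and 18.9 CPM in Poria High and 33.3, 32.2 and 35.4 CPM in Poria Low, with wide separation, and fell by 0.88 (SE 0.07, edgeR adjusted p 4e-15). It was also the only member called at Poria Medium, where 15.5% of all genes were called, 7.29% lower and 8.16% higher: Medium had 28.0, 27.3 and 27.6 CPM, and the log2 change from Low was -0.28 (SE 0.06, edgeR adjusted p 0.000718). The other genes of the dissolution complex did not share one pattern, since RMI1 fell by 0.44 and BLM and TOP3A were at -0.02 and -0.03, not called.

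EME1 had 14.4, 17.0 and 14.8 CPM in Poria High and 20.6, 20.8 and 21.8 CPM in Poria Low, and fell by 0.45 (SE 0.07, edgeR adjusted p 1.15e-06). MUS81 had 14.1, 13.4 and 14.4 CPM in Poria High and 12.8, 12.4 and 14.1 CPM in Poria Low, and was not called. RAD51AP1 had 15.1, 19.9 and 17.1 CPM in High and 23.2, 22.6 and 23.8 CPM in Low, and fell by 0.42 (SE 0.08, edgeR adjusted p 5.28e-05). XRCC3 had 15.0, 14.2 and 13.5 CPM in High and 19.2, 17.5 and 19 CPM in Low, and fell by 0.39 (SE 0.07, edgeR adjusted p 1.01e-05). In EME1, RAD51AP1 and XRCC3 the High and Low libraries were apart.

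FANCL had 9.10, 11.6 and 11.6 CPM in Poria High and 13.2, 12.4 and 15.8 CPM in Poria Low, and fell by 0.36 (SE 0.10, edgeR adjusted p 0.00466). Without Poria Low replicate 3 its adjusted p was 0.0741, and without Poria High replicate 1 it was 0.0655. FANCF had 7.75, 8.49 and 7.64 CPM in High and 9.80, 10.5 and 10.2 CPM in Low, and fell by 0.36 (SE 0.08, edgeR adjusted p 0.000222), opposite to its rise under Glycyrrhiza. FANCG fell by 0.33, RAD54L by 0.35 and BARD1 by 0.27; BARD1 had 16.4, 16.1 and 15.3 CPM in High and 20.8, 20.0 and 16.7 CPM in Low. BRIP1 had 34.9, 31.8 and 28.0 CPM in High and 41.6, 36.1 and 29.7 CPM in Low. Its groups overlapped, and it was not called (edgeR adjusted p 0.0607). High was below Low at each replicate number, a pairing that this fit did not use.

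The other genes called lower in Poria High were RAD51C (-0.23), UBE2T (-0.20), FANCI (-0.19), BRCA1 (-0.18), FANCD2 (-0.17) and FANCA (-0.15), each a log2 fold change against Poria Low, and NBN was higher (0.14). Each of these 7 calls was lost in at least 1 of the alternative fits, as were those of MRE11, FANCL and ATR. MRE11 had 31.3, 35.7 and 34.1 CPM in Poria High and 37.8, 40.0 and 36.5 CPM in Poria Low, at a log2 change of -0.18 (edgeR adjusted p 0.0117), and its adjusted p was 0.101 without Poria High replicate 1 and 0.0786 without Poria Low replicate 2. ATR had 25.5, 26.6 and 27.3 CPM in High and 26.4, 22.9 and 19 CPM in Low, at 0.21 (edgeR adjusted p 0.00916), with overlapping groups. Without Poria Low replicate 3 the adjusted p of ATR was 0.217. CHEK1, EXO1, FANCM and BLM, each among the strong falls under Glycyrrhiza, were at 0.01, -0.16, -0.07 and -0.02 and were not called. Over the 39 genes, the log2 change in Poria High went with exon length (Spearman rho 0.52, 39 genes that share the same libraries), and over all tested genes the median was -0.07 at exon lengths up to the lower quartile and 0.05 at those above the upper quartile. The part of length in the Poria calls was not tested.

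Set against each other, the dose responses to Glycyrrhiza and Poria differed in 30 of the 39 genes by the edgeR test of the difference itself, 28 with the Glycyrrhiza change lower and 2 higher, where 45.6% of all genes were called. Of the 30 genes lower in Glycyrrhiza High, 16 (53.3%) were also lower in Poria High, and these 16 were 94.1% of the 17 lower in Poria High. Over all genes tested, 1466 were lower in both, which is 32.3% of the 4533 lower in Glycyrrhiza High and 48.9% of the 2997 lower in Poria High. These shares have unlike base rates: 30 of the 39 were lower in Glycyrrhiza High, against 27.8% of all genes. Much of the 94.1% thus follows from that count alone. Whether the 2 responses go together within the list was not tested. The Glycyrrhiza change minus the Poria change was -1.12 for CHEK1 (SE 0.07, edgeR adjusted p 4.16e-17), -1.13 for EXO1 and -1.40 for FANCB. MUS81 and FANCF gave 0.69 and 0.60 in the other direction. RMI2 gave 0.13 (95% interval -0.05 to 0.31) and RMI1 -0.17 (95% interval -0.40 to 0.07), so that no difference was detected for either of these genes, which fell in both extracts.

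**Figure D3:**
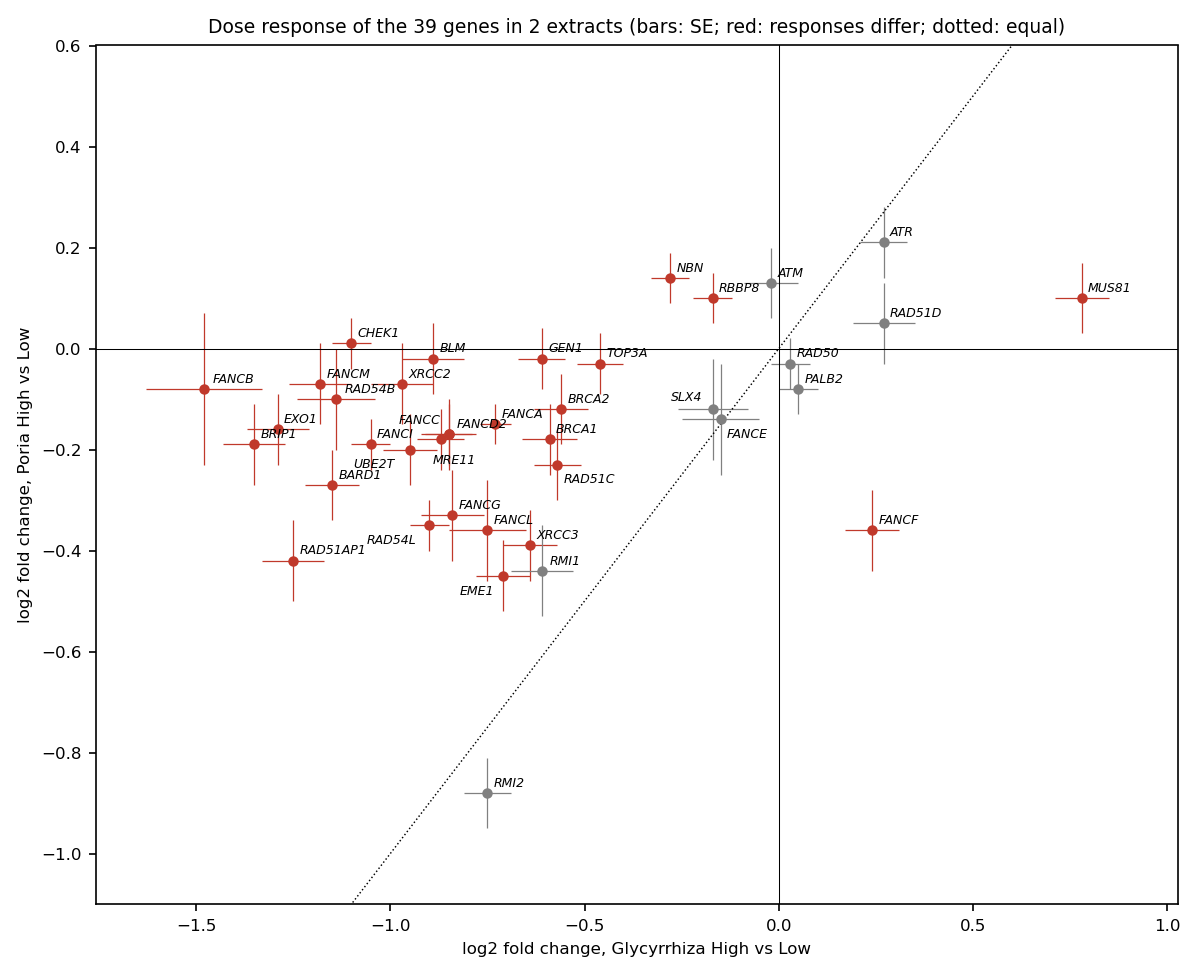
Each point is 1 of the 39 genes, with its log2 fold change High against Low in Glycyrrhiza (horizontal) and in Poria (vertical); bars are SE, red marks the 30 genes whose responses differed at an adjusted p below 0.05, and the dotted line marks equal responses. Most points spread far to the left at small Poria changes, RMI2 lies near the dotted line, and MUS81 lies right of the rest.

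The other extracts with replicates changed few of the 39. In Atractylodis High against Low, 2 were called, with 6.41% of all genes (3.39% higher, 3.02% lower), and in Ginseng High against Low, 2, with 5.79% (2.92% higher, 2.87% lower). Both times they were RBBP8, higher, and RMI2, lower. RBBP8 rose by 0.20 in both (SE 0.05, edgeR adjusted p 0.0047 in Atractylodis and 0.00466 in Ginseng), and RMI2 fell by 0.26 in Atractylodis and by 0.24 in Ginseng (SE 0.06, edgeR adjusted p 0.00386 and 0.012). RMI2 had 28.3, 24.8 and 24.2 CPM in Atractylodis High and 29.7, 31.8 and 31.3 CPM in Atractylodis Low. In Ginseng it had 28.0, 25.5 and 25.4 CPM at High and 31.4, 32.3 and 29.6 CPM at Low. High and Low libraries were apart in both extracts. Fitted with only the groups compared, the count was 0 in Atractylodis and 1 in Ginseng, and without Ginseng High replicate 3 it was 0 in Ginseng.

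SDT High against Low gave 0 calls among the 39, with 2 at an unadjusted p below 0.05 and 1.04% of all genes called, and PMT High against Low gave 0, with 1 at an unadjusted p below 0.05 and 0.516% called; every other tool and setting run also gave 0 for both. At Medium against Low, no member was called by edgeR in SDT, PMT, Atractylodis or Ginseng, with 2, 4, 1 and 1 at an unadjusted p below 0.05; the share of all genes called was at most 0.00614%, and the alternatives run gave 0 as well. Compared as dose responses, Glycyrrhiza stood apart from the mean of the 5 other replicated extracts in 34 of the 39 genes, 30 lower and 4 higher, with 52.9% of all genes called. Poria stood apart from the mean of SDT, PMT, Atractylodis and Ginseng in 14, all lower, with 28.7% of all genes called, RMI2 first at -0.76 (SE 0.07, edgeR adjusted p 1.91e-11).

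Against vehicle, an extract differs by its set code as well as by the treatment, and these cannot be told apart. The DMSO content of the treated cultures is not given in the sources used here, so a difference in solvent cannot be told apart from the treatment either. The 18 comparisons also share the same 3 vehicle libraries. At Low, edgeR called 13 of the 39 in SDT (5 higher, 8 lower), with 35.9% of all genes (18.3% higher, 17.6% lower), and 16 in PMT (8 and 8), with 31.1% (16.1% and 15%). Poria Low gave 12 (4 higher, 8 lower), with 19.2% of all genes (9.9% and 9.32%), and Atractylodis Low gave 10 (2 and 8), with 26.9% (13.7% and 13.1%). Glycyrrhiza Low gave 16 (6 higher, 10 lower), with 29.7% (15.2% and 14.5%), and Ginseng Low gave 16 (4 and 12), with 33.4% (16.8% and 16.6%). In SDT and Atractylodis the share of the 39 was under that of all genes and in the other 4 extracts above it, and the median of the 39 at Low lay between -0.04 and 0.00 in every extract.

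At Medium the counts were 17 in SDT, with 36% of all genes called, 12 in PMT (29.7%), 18 in Poria (38.6%), 11 in Atractylodis (28.3%), 14 in Glycyrrhiza (34.9%) and 14 in Ginseng (29.9%). At High they were 16 in SDT (34.2% of all genes), 16 in PMT (29.2%), 19 in Atractylodis (34%) and 21 in Ginseng (36.3%). Poria High gave 23 (4 higher, 19 lower), with 51.1% of all genes called, 26.3% higher and 24.8% lower, and Glycyrrhiza High gave 35 (5 higher, 30 lower), with 61.3%, 31.1% higher and 30.2% lower. Single libraries moved several of these counts. Without Vehicle replicate 2, 8 were called in Glycyrrhiza Low, 5 in Poria Low, 5 in Atractylodis Medium, 9 in Ginseng Medium and 10 in PMT High. Leaving out a library of the extract gave 10 in Glycyrrhiza Low (replicate 2), 5 in Poria Low (replicate 2), 6 in Atractylodis Medium (replicate 3), 12 in Atractylodis High (replicate 2) and 8 in Ginseng Medium (replicate 1). In PMT it gave 7 at High without replicate 2 and 10 without replicate 3, 6 at Medium without replicate 2, and 10 at Low without replicate 3.

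RAD50, ATM, RMI2, FANCE and FANCG were called in 1 direction in all 18 comparisons with vehicle, as were 6.13% of all genes tested, 2.98% higher and 3.15% lower. RAD50 had 74.5 to 92.3 CPM over the libraries of the 6 replicated extracts, against 69.8, 62.9 and 66.1 CPM in vehicle. None of those extract libraries reached down to vehicle, and its log2 fold changes were 0.26 to 0.42 (edgeR adjusted p 3.69e-08 to 0.000121). ATM had 74.6 to 101 CPM in the same extract libraries, against 70.6, 66.9 and 74.4 CPM in vehicle, and rose by 0.24 to 0.38 (edgeR adjusted p 2.41e-05 to 0.0165). The lowest extract library and the highest vehicle library of ATM were nearly level.

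RMI2 had 16.5 to 35.4 CPM over all extract libraries, against 43.1, 41.6 and 47.7 CPM in vehicle. Every extract library, those of Angelica and Paeonia included, was below vehicle, and the log2 fold changes were -1.34 to -0.38 (edgeR adjusted p 2.47e-23 to 1.35e-05). FANCE, which bridges the core complex to FANCD2, had 5.01 to 8.27 CPM in the replicated extracts, against 9.32, 10.4 and 9.43 CPM in vehicle, and its log2 fold changes were -0.63 to -0.37. FANCG had 7.95 to 16.8 CPM in the replicated extracts, against 18.8, 19.4 and 18.4 CPM in vehicle, and its log2 fold changes were -1.20 to -0.24. In both genes the extract libraries lay wholly below vehicle. FANCE was thus lower than vehicle at every dose, while no difference between High and Low passed the edgeR test in any of the 6 extracts.

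**Figure D4:**
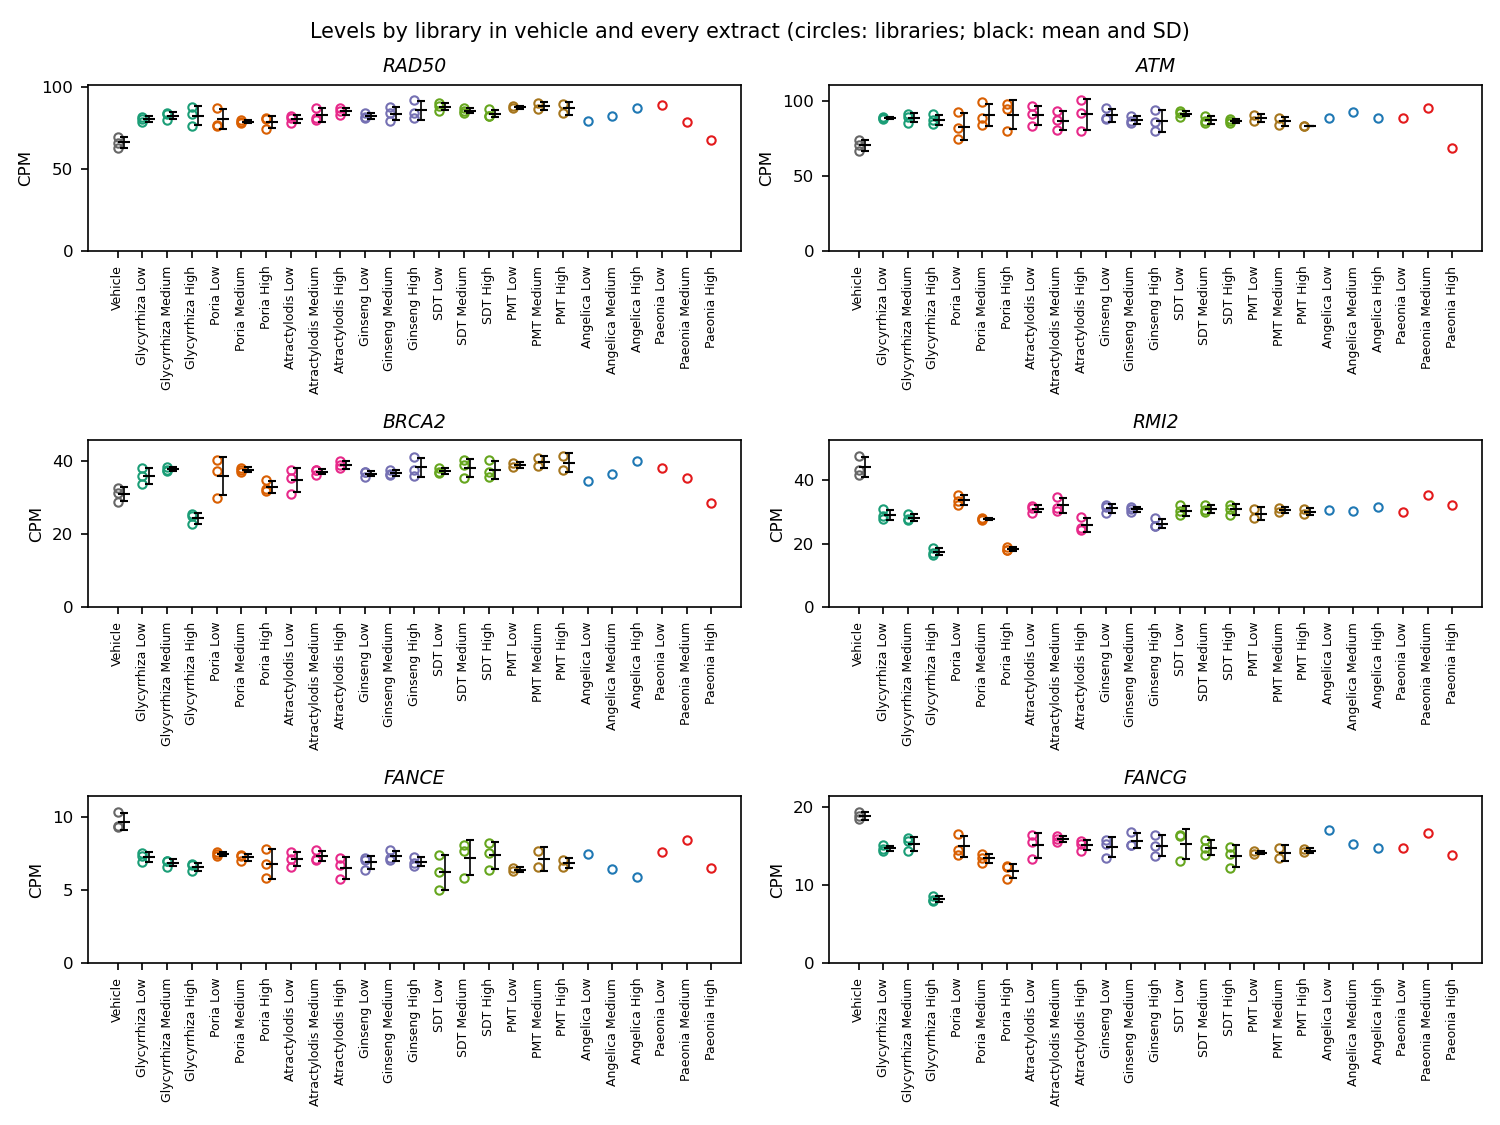
Level in CPM (vertical axes, from 0) of 6 genes in vehicle and in every group of the 8 extracts, by dose; circles are libraries, black marks are the mean and SD where a group has more than 1 library. RAD50 and ATM lie above vehicle in the 6 replicated extracts, RMI2, FANCE and FANCG lie below vehicle in all, and BRCA2 lies above vehicle in most groups and drops at Glycyrrhiza High.

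Other members differed from vehicle in most, but not all, of the 18 comparisons. XRCC3 was lower in 16, FANCC in 14, RAD51D in 13, FANCF and BRIP1 in 11 each, and FANCI in 10. BRCA2 was higher in 15 and lower in 1, RAD54B higher in 14 and lower in 1, and RBBP8 higher in 11. Each comparison called 19.2% to 61.3% of all genes, and the share of all genes called in as many comparisons was not counted. BRCA2 and RAD54B were lower in Glycyrrhiza High, the dose at which both also fell against Low. For RAD54B the overlapping gene FSBP was at 0.349 to 2.43 CPM in extract libraries and 0.0683 to 0.371 CPM in vehicle. SLX4 was called in 0 of 18 by edgeR. Exon length moved with these differences: over all genes tested, the median log2 change at Low against vehicle was -0.09 to -0.04 at exon lengths up to the lower quartile and 0.05 to 0.11 at those above the upper quartile. Of the 39, 16 were above the upper quartile and 2 at or under the lower one. ATM, with 23972 exon bases, and RAD50, with 9771, were higher, and RMI2, FANCE and FANCG, with 3632, 2692 and 3614, were lower. FANCC, RAD51D, BRIP1, FANCI and XRCC3, with 12809, 11304, 7991, 7766 and 7507 exon bases, were mostly lower, and the upper quartile was 6814. Exon length here merges all annotated exons of a gene and can exceed the length of the transcripts present. Over the 39 genes, Spearman's rho of length and log2 change at Low against vehicle was 0.12 to 0.31 across the 6 extracts, which share the vehicle libraries. The part of length in these results was not tested.

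In Glycyrrhiza High against vehicle the higher genes were RAD50 (0.32), PALB2 (0.12), MUS81 (0.73), ATR (0.28) and ATM (0.32), each a log2 fold change. RBBP8, RAD51D, SLX4 and FANCF were not called there. MUS81 had 23.2, 23.0 and 23.3 CPM in Glycyrrhiza High, against 13.7, 15.1 and 13 CPM in vehicle, so its High level was above both Low and vehicle. RAD51D and FANCF rose against Low and were not called against vehicle, where RAD51D had 11.9, 12.9 and 12.4 CPM and FANCF had 10.2, 12.6 and 11.0 CPM. Their Glycyrrhiza High libraries lay at the vehicle level, and their Glycyrrhiza Low libraries mostly under it.

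Paeonia and Angelica had 1 library per dose, so their differences have no replicate check, and a log2 ratio of at least 0.5 either way was used as a rule of size. In Paeonia High over Low, the median of the 39 was -0.22, against 0 over all genes, and 2 genes were past the rule, both lower, with 11.8% of all genes lower by that much. FANCA had 54.1 CPM in Paeonia High and 91.4 CPM in Paeonia Low, a log2 ratio of -0.76, and BRCA1 had 35.7 CPM in High and 51.2 CPM in Low, a ratio of -0.52. In Paeonia High over the vehicle mean, 5 genes were lower by the rule, with 13.6% of all genes: FANCA (-0.74), BRIP1 (-0.59), FANCI (-0.58), FANCE (-0.57) and ATR (-0.55). The sum of the 39 was 1217 CPM in Paeonia Low, 1218 CPM in Paeonia Medium and 1011 CPM in Paeonia High.

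Paeonia Low over vehicle had 1 gene lower by the rule, RMI2 at -0.56, with 9.14% of all genes. Angelica High over Low had 0 genes past the rule in either direction, with 7.55% of all genes lower, and its median was 0.05. Over vehicle, Angelica had FANCE lower at High (-0.70; 9.51% of all genes lower), RMI2 (-0.53) and FANCE (-0.58) at Medium (6.85%), and RMI2 (-0.53) at Low (5.24%). RMI2 and FANCE were lower than vehicle in every replicated extract. So was FANCG, which was at -0.36, -0.30 and -0.14 in Angelica High, Medium and Low, not past the rule. Angelica is set against the same vehicle libraries as the other extracts.

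Other repair pathways, on lists of related genes, give the setting for Glycyrrhiza High against Low. Of 45 tested other recombination and Fanconi genes, 23 were lower and 9 higher (median log2 -0.20), with FIGNL1 and DNA2 at -1.07 and RPA1 at -1.06. Of 21 checkpoint partners of ATR and ATM, 17 were lower and 2 higher (median -0.48), led by H2AX at -1.62 and CLSPN at -1.28. CLSPN encodes the adaptor through which ATR activates CHEK1. Non-homologous end joining, the other main route of break repair, had 4 of 12 genes higher and 4 lower (median 0.05): LIG4, its ligase, rose by 0.82, and XRCC5 and XRCC6, which encode the Ku subunits, fell by 0.68 and 0.61. Mismatch repair had 3 of 7 lower and 2 higher (median -0.03), nucleotide excision repair 7 of 18 lower and 5 higher (median -0.09), and base excision repair 8 of 18 lower and 2 higher (median -0.02). The 39 genes had a lower median than each of these lists, and the proliferation markers a lower one still, at -1.40. Of 20 E2F, DREAM and MuvB regulators, 16 were lower and 3 higher (median -0.64), with E2F8 at -1.98. Of 15 p53 targets, 7 were higher and 5 lower (median -0.03), with GDF15 at 2.43. No test compared these lists with each other. Members and lists were chosen with earlier results of these data known, so the order of their medians is only a description.

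In Poria High against Low, other recombination and Fanconi genes had 15 of 45 lower and 4 higher (median -0.09), checkpoint partners 6 of 21 lower and 1 higher (median -0.07), and end joining 2 of 12 lower and 0 higher. Mismatch repair had 1 of 7 lower and 0 higher (median -0.06), nucleotide excision repair 5 of 18 lower and 3 higher (median -0.04), and base excision repair 6 of 18 lower and 1 higher (median 0). The E2F, DREAM and MuvB regulators had 9 of 20 lower and 3 higher (median -0.13), and the p53 targets 8 of 15 lower and 3 higher (median -0.22). By the edgeR test of the difference, the Glycyrrhiza change was lower in 16 and higher in 6 of 45 other recombination and Fanconi genes. Checkpoint partners gave 13 and 2 of 21, end joining 4 and 3 of 12, and mismatch repair 3 and 1 of 7. Nucleotide excision repair gave 3 and 5 of 18, and base excision repair 9 and 5 of 18. The E2F, DREAM and MuvB regulators gave 14 and 1 of 20, and the p53 targets 0 and 5 of 15. Over all genes, 23.8% were lower and 21.8% higher. No test took a list as a whole.

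Levels within the list were compared per kilobase of exon in vehicle. The length merges all annotated exons of a gene and can exceed the transcripts present, so the order of genes depends on the annotation. UBE2T led with 17.6 ± 1.08 CPM per kb (SD, n = 3), followed by RAD54L at 12.3 ± 0.393 and RMI2 at 12.1 ± 0.883, which did not differ beyond their spread. PALB2 had 11.0 ± 0.317 and RAD51AP1 10.1 ± 0.791 CPM per kb. At the other end were FANCC with 1.27 ± 0.038, RAD51D with 1.10 ± 0.0432 and FANCB with 0.927 ± 0.038 CPM per kb. In Glycyrrhiza High the level of UBE2T was 7.82 CPM per kb and that of PALB2, not called against Low, was 12 CPM per kb.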

How the data were processed

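The authors deposited expected counts per gene, which RSEM estimates and which need not be whole: 23.4% of the nonzero values were not whole (tolerance 0.005). Per the submitters' processing notes, FastQC 0.11.9, Trim Galore 0.6.5, STAR 2.7.3a and RSEM 1.3.3 were used with GRCh38. Neither the annotation release nor how counting treated strand is given in the sources used here. Per the labels' protocols, libraries were made from poly(A) RNA with a directional kit. Of 270 sample columns, 60 matched the samples, and 210 were not used. Of 60675 identifiers, 56558 carried a symbol, and exon lengths and overlaps came from GENCODE 29 (57055 identifiers found).

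Expected counts were rounded and fitted in 1 model with edgeR 4.0.16 (quasi-likelihood test, TMM scaling, filterByExpr, R 4.3.3, limma 3.58.1) over 54 libraries in 19 groups. Of all genes, 16284 were tested, with a coefficient of variation between replicates of 5.6%, and p-values were adjusted by Benjamini-Hochberg over all of them at 0.05. SE and 95% intervals came from the quasi-likelihood F statistic. Differences between dose responses were contrasts of the same model. CPM used TMM-scaled library sizes, and log2 ratios of single libraries a prior count of 2. The script was tested on simulated data. Library totals ran from 19057227 to 33233238 and limit the precision for genes with few counts. No 2 libraries of a group were the same within sampling noise.

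Alternatives were DESeq2 1.42.0, RLE scaling, no count filter, only the groups compared, a replicate block, leaving out mitochondrial genes, and leaving out each library. All 39 members are accounted for. Values per library are given for the member of each role with the largest change in Glycyrrhiza or Poria and for those that went against most members, and further ones were chosen after their values were seen. From other lists up to 3 genes with the largest changes are named. The members and lists were chosen with earlier results of these data known.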

Additional observations from a re-analysis of the deposited data

Results flagged for a closer look

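The response to High against Low differed between Glycyrrhiza and Poria, by the edgeR test of the difference itself (Benjamini-Hochberg adjusted p below 0.05), in 30 of the 39 genes. Over all genes tested, 45.6% were called in this contrast. Each gene value here is the Glycyrrhiza log2 change minus the Poria one. The resection genes gave -1.13 for EXO1, -0.69 for MRE11, -0.43 for NBN and -0.28 for RBBP8. In the loading complex BARD1 gave -0.88, BRCA2 -0.44 and BRCA1 -0.41. Among paralogs and helpers XRCC2 gave -0.90, RAD51C -0.34, XRCC3 -0.25, RAD54B -1.05, RAD51AP1 -0.83 and RAD54L -0.54. BLM gave -0.87 and TOP3A -0.43, and the nuclease genes GEN1 -0.60, EME1 -0.26 and MUS81 0.69. In the Fanconi pathway FANCB gave -1.40, BRIP1 -1.16, FANCM -1.11, FANCI -0.86, UBE2T -0.74, FANCC -0.68, FANCD2 -0.68, FANCA -0.58, FANCG -0.51, FANCL -0.39 and FANCF 0.60. CHEK1 gave -1.12. Against the mean of the other 5 replicated extracts, the Glycyrrhiza response differed in 34 of the 39 genes, with 52.9% of all genes called. The Poria response differed from the mean of SDT, PMT, Atractylodis and Ginseng in 14, with 28.7% of all genes called.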

How the results depend on the processing

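Of 435 called values of single genes, recomputed under 6616 alternatives in all, 6082 kept direction and call, 534 lost the call and 0 reversed. Every call of Glycyrrhiza High against Low held in every alternative run, and the count was 34 to 35. Fits with only the groups compared gave 10 for Poria High against Low (19 reported), 0 for Atractylodis and 1 for Ginseng High against Low (2 each), 1 for Glycyrrhiza Medium against Low (0) and 5 for Poria Low against vehicle (12). Without the count filter, Poria Medium against Low gave 2 (1) and Ginseng Medium against vehicle 9 (14). Leaving out single libraries gave these ranges of counts. Against Low, Atractylodis High had 2 to 3, Ginseng High 0 to 2 and Poria Medium 1 to 2. Against vehicle, Atractylodis had 12 to 16 at High and 5 to 10 at Medium, Ginseng Medium 8 to 12, Glycyrrhiza Low 8 to 13 and Poria Low 5 to 13. PMT against vehicle had 7 to 16 at High, 6 to 13 at Medium and 10 to 15 at Low. The lowest PMT counts came without PMT High replicate 2, PMT Medium replicate 2 and PMT Low replicate 3. A PMT dose without 1 library has a lone sample, assumed to vary like the other groups. The cause of these changes was not tested. Replicate numbers are shared between groups. Deviations of same-numbered libraries correlated at -0.148 to 0.137 over all genes tested, and in 0 of 25 comparisons with 3 pairs were all over 0.1. That does not exclude an effect shared by number within some extracts. In every Poria and Atractylodis group, replicate 3 had the lowest sum over the 39 genes, and BRIP1 was highest in replicate 1. ATM in these groups had 79.8 to 84.4 CPM in replicate 1, 88.7 to 101 CPM in replicate 2 and 74.6 to 99.1 CPM in replicate 3. With the number as a replicate block, Poria Medium against Low gave 2 calls in place of 1. That block took the same effect of a number in all extracts, and pairing within single extracts was not tested. Genes with few counts, such as FANCB, have wider errors.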
